A study of Mus musculus with 15 samples.

Results

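The genes described here are 40 mouse genes of the type I interferon response, followed over 15 single-colour Affymetrix arrays of myeloid cells. A listed gene was represented by the probe set that carried its symbol alone, and by the brightest one where several did (1 gene, Ifi35). Such a probe set existed for 35 of the 40, of 22180 genes in all, and Oas1a, Ifi44, Ifi27l2a, Ifi203 and Dtx3l had none. The filter on low signals left 16055 genes and removed none of the 35, although Mx1 passed it only through the group called RB below, where it was high. The arrays fell into 5 groups of 3, named by the code in their titles, and all cells came from C57Bl/6 mice and met the growth factor G-CSF, in the animal or in the dish. MDSC arrays hold suppressor cells grown from bone marrow with G-CSF, GM-CSF and IL-13 and gated on Ly6C and CD11b. RB, GFK and GFW arrays hold spleen cells of mice given G-CSF, depleted of cells that carry CD4, CD8, Ly6G, B220 or Ter119 and then gated as CD11b+CD34+. GFK mice are labelled iNOS knockout, whereas RB and GFW arrays carry the same wild-type labels. GFE arrays hold the wild-type sorted cells after 3 days with Flt3 ligand and SCF, for which the labels also name Stemspan. The labels used here give neither the age or sex of the mice, nor the number pooled per array, nor the knockout allele.

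Type I interferons are secreted by cells that sense foreign nucleic acid, and they act through the receptor pair Ifnar1 and Ifnar2. The kinases Jak1 and Tyk2 then activate Stat2, which joins Irf9 in a complex that binds the interferon-stimulated response element (ISRE) in the promoters of target genes. The targets include sensors of viral RNA, enzymes that stop translation or cleave RNA, and feedback inhibitors. Myeloid cells keep many of them at a basal level, and Irf7, itself a target, drives further interferon production.

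Promoter windows of 250 bases upstream of the start site, from RefSeq (GRCm38.p6), were available for 29 of the 40 listed genes. The core of the ISRE, searched as GAAA and GAAA parted by any 2 bases, on both strands and with overlapping matches allowed, occurred in 13 of the 29 (44.8%). Those were the windows of Isg15, Ifit1, Ifit3, Oas1a, Oas3, Rsad2, Stat2, Bst2, Trim30a, Ifi203, Ifi205, Slfn5 and Slfn8. Among all 27025 genes of the table it occurred in 936 (3.46%). The GAS element of interferon gamma targets, searched as TTCNNNGAA, which reads alike on both strands, occurred in 4 of the 29 (13.8%) and in 8.13% of all genes. A match describes the letters and is not evidence of binding. The 5 windows printed here, each 5′ to 3′ on the strand of its gene, belong to genes whose signals separate the groups below, and capitals mark ISRE core matches. Isg15 (chr4:156200819-156201068, minus strand) has 3 overlapping matches, Ifit1 (chr19:34640639-34640888, plus strand) has 2 on the opposite strand, and Bst2 (chr8:71537473-71537722, minus strand) has 2 that overlap. Slfn5 (chr11:82951852-82952101, plus strand) has 1 match and its neighbour Slfn4 (chr11:83174936-83175185, plus strand) has none in this window.

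Isg15: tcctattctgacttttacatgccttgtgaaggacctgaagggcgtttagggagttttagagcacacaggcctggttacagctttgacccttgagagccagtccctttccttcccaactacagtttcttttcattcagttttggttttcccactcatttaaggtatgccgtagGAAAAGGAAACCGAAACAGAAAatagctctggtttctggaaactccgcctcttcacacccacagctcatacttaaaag
Ifit1: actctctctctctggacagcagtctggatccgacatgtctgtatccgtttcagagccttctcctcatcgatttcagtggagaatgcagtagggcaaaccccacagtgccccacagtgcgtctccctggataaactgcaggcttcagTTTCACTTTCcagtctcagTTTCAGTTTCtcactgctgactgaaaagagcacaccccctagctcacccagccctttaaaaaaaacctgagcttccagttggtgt
Bst2: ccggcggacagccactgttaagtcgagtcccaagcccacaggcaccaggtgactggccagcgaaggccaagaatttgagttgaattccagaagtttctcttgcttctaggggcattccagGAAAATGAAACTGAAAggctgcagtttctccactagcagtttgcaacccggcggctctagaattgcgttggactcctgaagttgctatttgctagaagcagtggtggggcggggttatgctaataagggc
Slfn5: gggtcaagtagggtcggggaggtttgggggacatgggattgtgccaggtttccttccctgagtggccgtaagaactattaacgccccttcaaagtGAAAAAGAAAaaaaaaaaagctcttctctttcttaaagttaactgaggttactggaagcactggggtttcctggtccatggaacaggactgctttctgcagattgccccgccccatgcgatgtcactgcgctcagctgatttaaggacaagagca
Slfn4: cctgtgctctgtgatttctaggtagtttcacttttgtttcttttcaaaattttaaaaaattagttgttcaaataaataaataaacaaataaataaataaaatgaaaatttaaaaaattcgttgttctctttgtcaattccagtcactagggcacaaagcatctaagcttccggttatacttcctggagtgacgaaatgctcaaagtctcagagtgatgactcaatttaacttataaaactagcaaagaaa

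Values are log2 RMA signals, and the medians of the arrays lay between 5.52 and 5.72 log2. Nos2, which encodes iNOS, read 8.84, 8.91 and 8.92 on the arrays labelled knockout and 8.09, 8.32 and 8.43 on GFW arrays. The signal was thus higher under the knockout label (0.61 log2, limma adjusted p = 0.0137), and which exons the probe set reads is not known here. Ly6g, whose protein was used to remove cells, averaged 12.08 ± 0.05 on GFK and 12.19 ± 0.03 on GFW arrays, against 6.28 ± 0.10 on RB arrays. Itgam, which encodes CD11b, was 10.32 ± 0.05 on MDSC arrays and 7.94 ± 0.11 after culture, where Ly6c2 was 7.18 ± 0.49, against 12.69 ± 0.06 on MDSC arrays. Cd34, a gate gene, was 11.28 ± 0.03 after culture, 7.27 ± 0.26 on GFK, 7.19 ± 0.20 on GFW and 5.92 ± 0.11 on RB arrays (SD, n = 3 throughout). The title prefix is shared by GFE, GFK and GFW arrays, while MDSC and RB arrays have a prefix each, so that a difference between prefixes and one between cells cannot be told apart for MDSC and RB. Whether the replicates of a group came from different mice is not given, so p-values measure the spread between these arrays, which may be technical. In such bulk samples fewer cells of a type and less RNA per cell cannot be told apart.

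The interferon response genes had their lowest mean on the MDSC arrays for 32 of 35 genes. The exceptions were Bst2 and Eif2ak2, lowest on GFW arrays, and Slfn4, lowest after culture. The highest mean fell on RB arrays for 14 genes, GFK for 11, GFW for 8, GFE for 2 and MDSC for 0. How often each group was lowest or highest over all genes was not computed. Isg15, the ubiquitin-like protein that is joined to other proteins during the response, read 5.44, 5.34 and 5.78 on MDSC arrays. It read 8.14, 8.0 and 8.50 on RB, 8.46, 8.86 and 8.88 on GFE, 9.20, 9.53 and 9.35 on GFK and 9.21, 9.29 and 9.36 on GFW arrays. The MDSC arrays stood below all others, RB and GFE arrays overlapped in the middle, and so did GFK and GFW arrays at the top. Across groups the means of a gene differed by as little as 0.97 log2 (Eif2ak2) and as much as 7.15 log2 (Slfn4). The MDSC mean lay below the 40th percentile of probe sets, taken here as near background, for Ifi205, Slfn5, Mx1 and Mx2, and differences from it are lower bounds. Not far above that cutoff were the MDSC means of Oasl2 (percentile 40.3), Ifit2 (40.7) and Rtp4 (44.8). The same held for the GFE means of Slfn4 (43.9) and Ifi205 (44.1) and the GFW mean of Mx2 (41.8). Differences from these means may be understated as well.

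**Figure D1:**
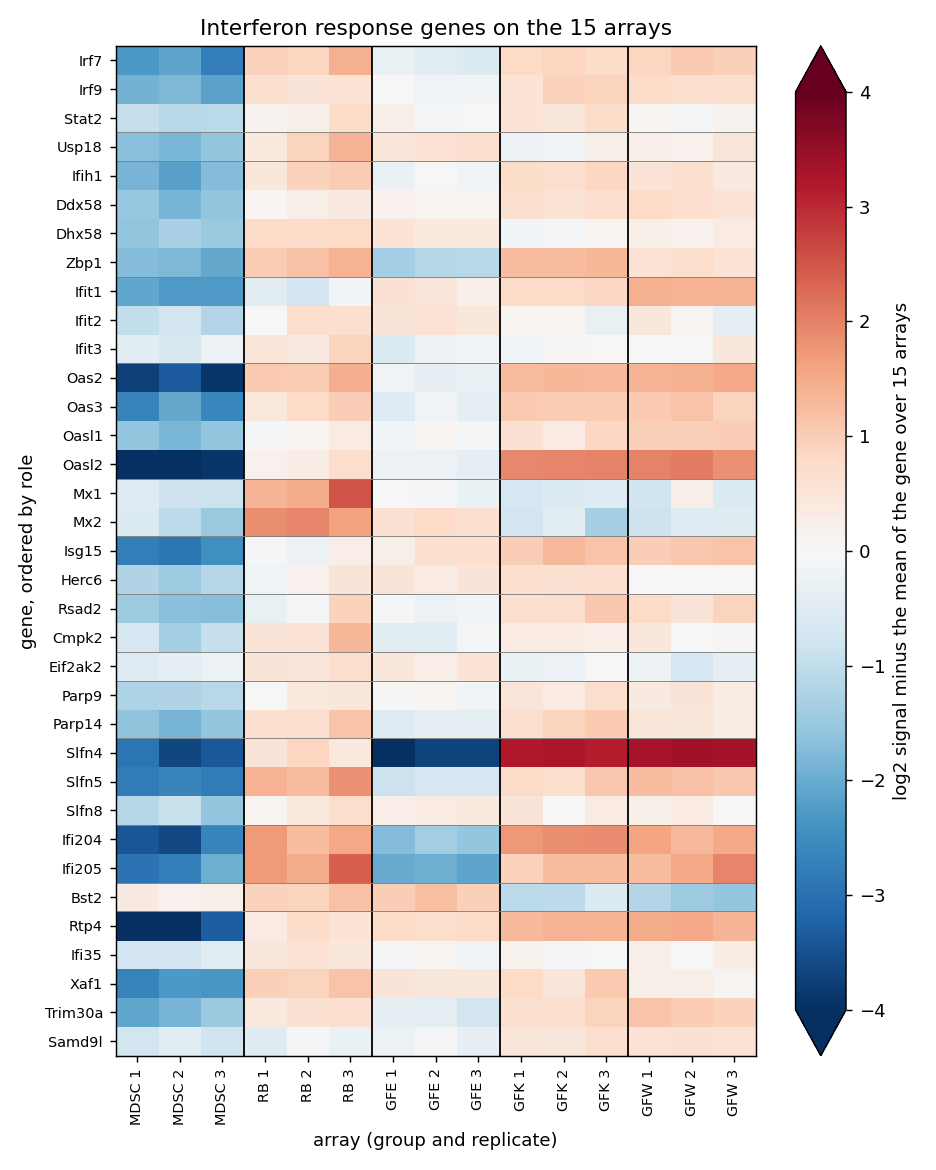
Signal of the 35 interferon response genes (rows, ordered by role) on the 15 arrays (columns, 3 per group), as log2 signal minus the mean of the gene over all arrays, with colours saturated beyond 4 log2. The MDSC group has the lowest mean for 32 genes, Bst2 is high on MDSC, RB and GFE arrays, and Slfn4 is high on GFK and GFW arrays. The count of lowest means was not made over all genes.

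Suppressor cells grown from marrow were compared with the mobilised cells to ask how the dish-made population differs from the one raised in the animal. Against RB arrays, 35 of 35 genes were lower and 0 higher on MDSC arrays at a limma adjusted p under 0.05, where 19.5% of all genes tested were lower and 25.3% higher. The median difference was -2.50 log2, against 0.03 over all genes. For 34 of the 35 the arrays did not overlap (background 23.2%), and the exception was Samd9l. Both counts include Mx1, which passed the filter only through the RB arrays. Against GFW arrays 31 were lower and 1 higher (background 29.4% and 29.8%), with a median of -2.34 against -0.11 over all genes. Against GFE arrays, the other cultured cells, 31 were lower and 1 higher (background 17.4% and 15.4%), with a median of -1.63 against 0.00. Centring each array on its median moved the median of all genes by 0.12 log2 in the comparison with GFW. These 3 comparisons use the same MDSC arrays and are not independent. Of the 10 monocyte markers, 9 were lower and 0 higher on MDSC than on RB arrays (mean levels 7.74 to 7.83 on MDSC and 11.35 to 11.46 on RB arrays), 4 lower and 3 higher than on GFW, and 4 lower and 5 higher than on GFE arrays. Of the 10 neutrophil markers, 4 were lower and 6 higher on MDSC than on RB, 6 lower and 3 higher than on GFW, and 1 lower and 8 higher than on GFE arrays. All 9 progenitor markers tested were lower on MDSC than on GFE arrays. The part of these markers in the interferon genes was not tested.

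The transcription factors of the response were among the lower genes. Irf7 read 6.55, 6.73 and 6.08 on MDSC arrays, against 9.75, 9.69 and 10.25 on RB and 9.70, 9.87 and 9.79 on GFW arrays. It was 10.9-fold lower than on RB arrays (SE 0.16 log2, adjusted p = 9.47e-11) and 10.1-fold lower than on GFW arrays. Irf9, the DNA-binding subunit of the complex with Stat2, read 6.37, 6.47 and 6.13 on MDSC, 8.93, 8.78 and 8.82 on RB and 9.04, 8.94 and 8.90 on GFW arrays. On GFK arrays Irf7 read 9.63, 9.68 and 9.56 and Irf9 8.81, 9.20 and 9.15, and all MDSC values lay below all others for both factors. Stat2 read 7.88, 7.69 and 7.74 on MDSC, 8.97, 9.05 and 9.54 on RB and 8.89, 8.77 and 8.96 on GFW arrays, a smaller difference (-1.42 from RB and -1.10 from GFW). Usp18, which strips Isg15 from proteins and dampens the receptor, differed by -2.55 from RB, -1.96 from GFW and -2.26 from GFE arrays.

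Active OAS enzymes make an oligoadenylate messenger that activates RNase L. The 4 measured genes of the OAS and OAS-like family were all lower on MDSC arrays. Oas2 read 5.85, 6.27 and 5.68 on MDSC arrays, against 10.64, 10.61 and 11.02 on RB, 9.43, 9.24 and 9.32 on GFE and 10.93, 10.99 and 11.10 on GFW arrays. Its signal was 28.4-fold lower than on RB arrays (adjusted p = 6.06e-13) and 10.5-fold lower than on GFE arrays. Oasl2, an OAS-like protein, read 5.0, 5.10 and 5.22 on MDSC arrays, against 9.29, 9.40 and 9.83 on RB, 8.88, 8.88 and 8.72 on GFE and 11.09, 11.15 and 10.94 on GFW arrays. On GFK arrays Oas2 read 10.86, 10.91 and 10.89 and Oasl2 11.03, 11.07 and 11.09, so that both genes were lowest on every MDSC array. Oasl2 was 61.9-fold lower than on GFW arrays (adjusted p = 1.80e-14). Oas3 (-3.18 from RB) and Oasl1 (-1.79) were lower too. Oas genes are close paralogs, and how far their probe sets share signal was not checked.

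Rtp4, a chaperone of membrane receptors that also restrains flaviviruses, read 5.05, 4.81 and 6.09 on MDSC arrays. It read 9.71, 10.13 and 9.93 on RB, 10.12, 10.10 and 10.14 on GFE, 10.68, 10.77 and 10.78 on GFK and 10.87, 10.90 and 10.74 on GFW arrays, so the MDSC values were the lowest although they spread over more than 1 log2. Its signal was 27.9-fold lower than on GFE arrays, the largest difference there (adjusted p = 9.01e-11). Ifi204 and Ifi205 belong to the PYHIN family of DNA-binding proteins. Ifi204 read 5.51, 5.32 and 6.26 on MDSC and 10.63, 10.16 and 10.47 on RB arrays (26.4-fold lower, adjusted p = 1.68e-11). On GFK arrays Ifi204 read 10.64, 10.78 and 10.82. Ifi205 read 4.34, 4.57 and 5.34 on MDSC, 8.99, 8.76 and 9.68 on RB and 8.20, 8.53 and 8.54 on GFK arrays. It was at least 21.1-fold lower than on RB arrays and Slfn5, of the Schlafen family, at least 18.7-fold. Ifit1, which binds viral RNA that lacks cap methylation, read 5.95, 5.76 and 5.77 on MDSC, 7.57, 7.24 and 7.91 on RB and 9.43, 9.42 and 9.42 on GFW arrays. It was 12.1-fold lower than on GFW arrays and 3.36-fold lower than on RB arrays.

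The RNA sensors were lower as well. Ifih1 (MDA5) differed by -2.71 from RB, Dhx58 (LGP2) by -2.21, Ddx58 (RIG-I) by -1.88 and the Z-nucleic acid sensor Zbp1 by -3.06. From GFE arrays the same 4 differed by -1.77, -1.89, -1.77 and -0.67 log2. Zbp1 read 7.91, 7.85 and 7.62 on MDSC, 10.68, 10.83 and 11.03 on RB and 8.31, 8.51 and 8.56 on GFE arrays, so that the MDSC values were again the lowest. Xaf1, a partner of the apoptosis inhibitor XIAP, read 6.43, 6.79 and 6.77 on MDSC, 10.06, 9.999 and 10.24 on RB and 9.62, 9.55 and 9.57 on GFE arrays. Herc6, which in mice attaches Isg15 to its targets, read 7.22, 6.97 and 7.28 on MDSC, 8.28, 8.59 and 8.93 on RB and 8.95, 8.75 and 8.95 on GFE arrays. Neither gene's MDSC values overlapped those of the other groups. The remaining called genes against RB ran from Slfn4 (-3.91), Xaf1 (-3.44), Isg15 (-2.69), Parp14 (-2.50) and Trim30a (-2.35) through Rsad2 (-1.80), Cmpk2 (-1.78), Slfn8 (-1.61), Parp9 (-1.47) and Herc6 (-1.44) to Ifit2 (-1.42), Ifi35 (-1.14), Ifit3 (-1.0), Eif2ak2 (-0.94) and Samd9l (-0.40). Mx1 and Mx2, genes of the dynamin-like GTPase family, were at least 5.74-fold and 7.18-fold lower on MDSC than on RB arrays. Their differences from GFW arrays were not called (-0.36 and -0.44). Mx1 read 4.57, 4.26 and 4.22 on MDSC arrays, 5.09, 5.0 and 4.83 on GFE and 4.40, 4.54 and 4.55 on GFK arrays, and Mx2 read 5.38, 4.86 and 4.42 on MDSC and 5.17, 5.48 and 4.58 on GFK arrays. Against GFE arrays the genes not called were Mx1 (-0.62), Ifi205 (-0.52) and Ifit3 (-0.14). The small Samd9l call was lost without MDSC replicate 1, MDSC replicate 3 or RB replicate 2 (adjusted p up to 0.101), and with each array centred on its median (0.0557). Also lost were the call of Ifit3 against GFW without GFW replicate 3 (0.0514), and against GFE those of Cmpk2 without MDSC replicate 2 or GFE replicate 3 (up to 0.114) and Samd9l without MDSC replicate 3 or GFE replicate 2 (up to 0.0599).

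Bst2 stood apart. It encodes tetherin, which holds budding virus at the membrane and in mice also marks plasmacytoid dendritic cells. It read 9.70, 9.51 and 9.60 on MDSC and 10.26, 10.23 and 10.52 on RB arrays, and 10.34, 10.55 and 10.29 on GFE arrays. On GFK arrays it read 8.28, 8.30 and 8.79 and on GFW arrays 8.18, 7.90 and 7.79. The MDSC values lay above all GFW values (3.12-fold higher, adjusted p = 9.41e-08) and below all RB and GFE values. Eif2ak2, the kinase PKR that halts translation, read 8.08, 8.20 and 8.37 on MDSC and 8.31, 8.35 and 8.58 on GFK arrays and was not called on MDSC against GFW arrays (0.02, adjusted p = 0.881). Slfn4, a Schlafen gene of myeloid cells, read 6.15, 5.45 and 5.73 on MDSC and 12.30, 12.36 and 12.24 on GFK arrays, and on MDSC arrays it was 99.5-fold lower than on GFW arrays (adjusted p = 5.56e-14). It was the single gene higher on MDSC than on GFE arrays (1.43-fold, adjusted p = 0.0206), and this call was lost without MDSC replicate 1 or GFE replicate 1 (adjusted p up to 0.132).

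**Figure D2:**
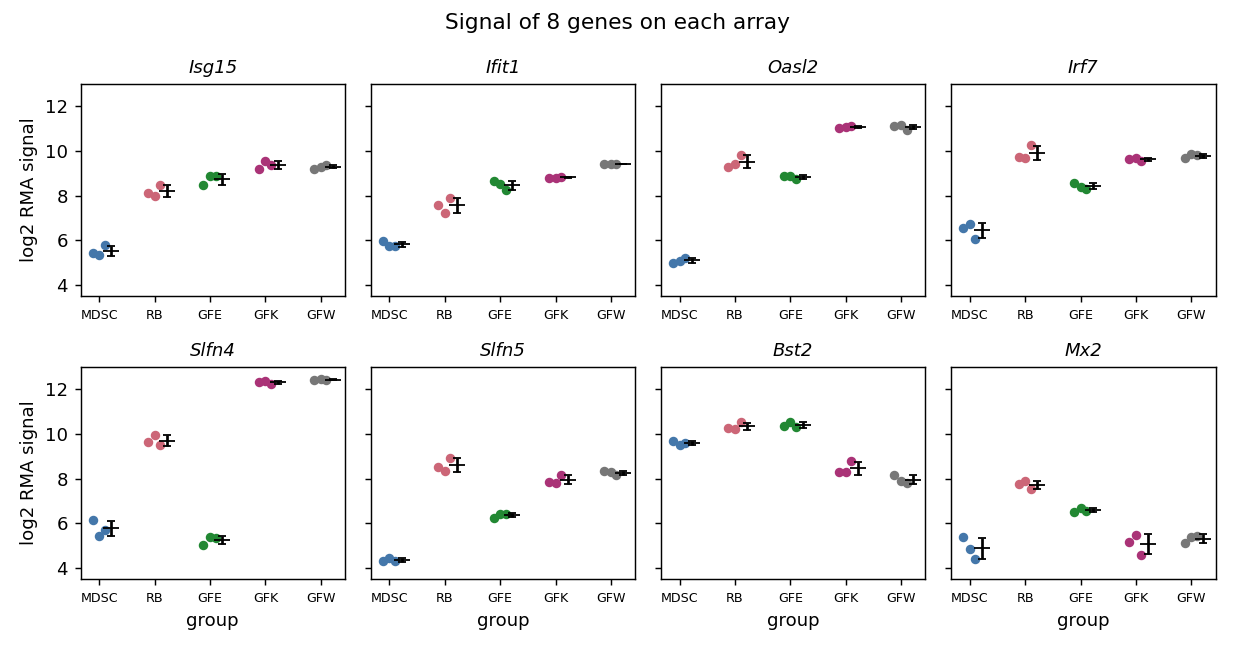
log2 RMA signal of 8 genes (panels) in the 5 groups, with a point per array and the mean and SD of 3 arrays beside the points, on 1 vertical scale. Isg15, Ifit1, Oasl2, Irf7 and Slfn5 are lowest on MDSC arrays, Slfn4 is lowest on GFE arrays, and Bst2 and Mx2 are higher on RB and GFE arrays than on GFW arrays.

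Cultured GFE cells were compared with GFW cells to ask how the response stands after 3 days in Flt3 ligand and SCF. Of the 35 genes, 22 fell and 4 rose (background 32.1% lower and 32.6% higher), with a median of -0.66 log2, against -0.10 over all genes. With each array centred on its median, which moved the median of all genes by 0.14 log2, 20 fell and 7 rose. Slfn4 read 5.03, 5.37 and 5.37 after culture and 12.39, 12.45 and 12.41 on GFW arrays. That is 142-fold lower (SE 0.16 log2, adjusted p = 6.11e-15). Of its neighbours on chromosome 11, Slfn5 fell by 1.90 log2, with 6.26, 6.43 and 6.42 after culture and 8.35, 8.28 and 8.18 on GFW arrays, and Slfn8 was not called (0.14, adjusted p = 0.513).

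Both PYHIN genes fell with culture. Ifi205 read 5.27, 5.35 and 5.19 on GFE arrays, against 8.53, 8.81 and 9.25 on GFW arrays (12-fold lower, adjusted p = 4.58e-09). Ifi204 read 7.2, 7.53 and 7.37 on GFE arrays, against 10.49, 10.23 and 10.43 on GFW arrays (8.09-fold lower, adjusted p = 1.45e-09). The arrays of the groups did not overlap for either gene, and 23 listed genes were separated downward in this way. The share of all genes so separated is not given here. All 4 OAS genes fell, namely Oasl2 (-2.23), Oas2 (-1.68), Oas3 (-1.37) and Oasl1 (-1.0), as did the sensors Zbp1 (-1.80), Ifih1 (-0.66) and Ddx58 (-0.54). Irf7, at 8.57, 8.41 and 8.29 after culture, fell by 1.37 log2 and Irf9, at 8.24, 8.14 and 8.13, by 0.79. Stat2, at 9.02, 8.75 and 8.81, was not called (-0.01). Isg15 fell by 0.55 and Ifit1, at 8.63, 8.51 and 8.23 after culture, by 0.97. The other genes that fell were Trim30a (-1.53), Rsad2 (-0.87), Parp14 (-0.85), Samd9l (-0.80), Rtp4 (-0.72), Ifit3 (-0.44) and Parp9 (-0.38). The calls of Ifit3 and Parp9 were lost with arrays centred on their medians (adjusted p = 0.147 and 0.148), Ifit3 also without GFE replicate 1 or GFW replicate 3, and Parp9 without GFE replicate 3 or GFW replicate 2. RB arrays, with the same wild-type labels as GFW, were not tested against GFE arrays. Means were higher on GFE than on RB arrays for Ifit1 (8.46 and 7.57), Isg15 (8.73 and 8.21), Rtp4 (10.12 and 9.92) and Samd9l (8.11 and 8.05). For the other genes that fell they were lower on GFE than on RB arrays.

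The 4 genes higher on GFE than on GFW arrays were Bst2, Mx2, Eif2ak2 and Herc6. Bst2 rose 5.41-fold (adjusted p = 7.22e-10). Mx2 read 6.52, 6.69 and 6.57 on GFE arrays, against 5.11, 5.41 and 5.45 on GFW arrays, a 2.41-fold rise (adjusted p = 1.39e-04). Eif2ak2 read 9.06, 8.87 and 9.15 on GFE arrays, against 8.41, 7.92 and 8.25 on GFW arrays (0.83, adjusted p = 6.24e-05). In all 4 genes, Herc6 among them, every cultured array lay above every GFW array. The same held for Usp18, Xaf1 and Dhx58, which were not called, so that 7 listed genes were separated upward. The share of all genes separated in this way is not given here for GFE and GFW arrays. Against the RB arrays, which have the same wild-type labels as GFW, the comparison was not tested. There the cultured values overlapped for Bst2 (10.39 ± 0.14 on GFE and 10.34 ± 0.16 on RB arrays), Eif2ak2 (9.03 ± 0.14 on GFE and 9.16 ± 0.10 on RB arrays) and Herc6, and those of Mx2 lay below (6.60 ± 0.09 on GFE and 7.73 ± 0.18 on RB arrays, SD, n = 3). Herc6 rose by 0.46 log2, a call lost when the quantile normalization was applied again (0.31, adjusted p = 0.0970). Not called were Ifit2 (0.46), Usp18 (0.30), Xaf1 (0.30), Dhx58 (0.19), Mx1 (0.26), Slfn8 (0.14), Stat2 (-0.01), Ifi35 (-0.22) and Cmpk2 (-0.47).

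Markers of other cell types moved with culture too. The mean log2 level of the 10 neutrophil markers ran from 5.90 to 6.12 on GFE and 11.22 to 11.29 on GFW arrays, and all 10 fell. The 10 progenitor markers ran from 8.95 to 9.01 on GFE and 6.56 to 6.60 on GFW arrays, with 8 of 9 tested higher. Of 8 plasmacytoid dendritic cell markers tested, 5 rose, led by Cox6a2 (3.81) and Ly6d (1.63), whereas Siglech, a defining surface lectin of these cells, fell by 0.64 log2. The part of these shifts in the changes of the interferon genes was not tested.

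GFK, the arrays labelled iNOS knockout, was set against GFW to ask whether the response differs in mobilised cells with that label. Of the 35 genes, 3 were higher and 1 lower on GFK arrays (background 1.18% and 0.268%), with a median of -0.04 log2, against -0.01 over all genes. Zbp1, which can trigger necroptosis, read 10.89, 10.90 and 10.98 on GFK arrays, against 10.24, 10.35 and 10.19 on GFW arrays (1.59-fold higher, adjusted p = 0.00741). Herc6 read 9.08, 9.02 and 9.09 on GFK arrays, against 8.44, 8.43 and 8.40 on GFW arrays (1.56-fold higher, adjusted p = 0.0286). Xaf1 read 9.89, 9.58 and 10.16 on GFK arrays, against 9.33, 9.32 and 9.21 on GFW arrays (1.51-fold higher, adjusted p = 0.0485). Ifit1 read 8.80, 8.80 and 8.84 on GFK arrays, against 9.43, 9.42 and 9.42 on GFW arrays (1.53-fold lower, adjusted p = 0.049). In all 4 the arrays of the groups did not overlap, which also held for 10 genes that were not called. Over all genes the arrays did not overlap for 7.92% (higher) and 7.74% (lower), against 7 and 7 of the 35.

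Of these calls, that of Zbp1 held without any single array. Those of Ifit1 and Herc6 were lost without any of the 6 arrays (adjusted p up to 0.136 and 0.0946), and that of Xaf1 without any but GFK replicate 2 (up to 0.178). With arrays centred on their medians 2 genes were higher and 0 lower, and in a fit of the 6 arrays alone the counts were the same. The other genes included Stat2, at 9.37, 9.27 and 9.56 on GFK and 8.89, 8.77 and 8.96 on GFW arrays (0.53, SE 0.14, adjusted p = 0.0912), and Bst2 (0.50, adjusted p = 0.135). The values of Isg15 (0.07), Irf7 (-0.16), Irf9 (0.09), Oas2 (-0.12), Oasl2 (0.00), Slfn4 (-0.12) and Rtp4 (-0.09) did not pass either. Irf1, from the list of receptor and signalling genes described below, differed by 0.79 log2. In the same comparison 8 of 12 genes of the interferon gamma list were higher, Gbp5 by 2.2 log2, as were 4 of 10 monocyte, 4 of 10 macrophage and 4 of 7 B cell markers. Macrophage markers had mean levels of 8.54 to 8.82 on GFK and 7.98 to 8.15 on GFW arrays, and B cell markers of 8.27 to 8.51 on GFK and 7.46 to 7.67 on GFW arrays. Their part in the 4 calls was not tested.

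**Figure D3:**
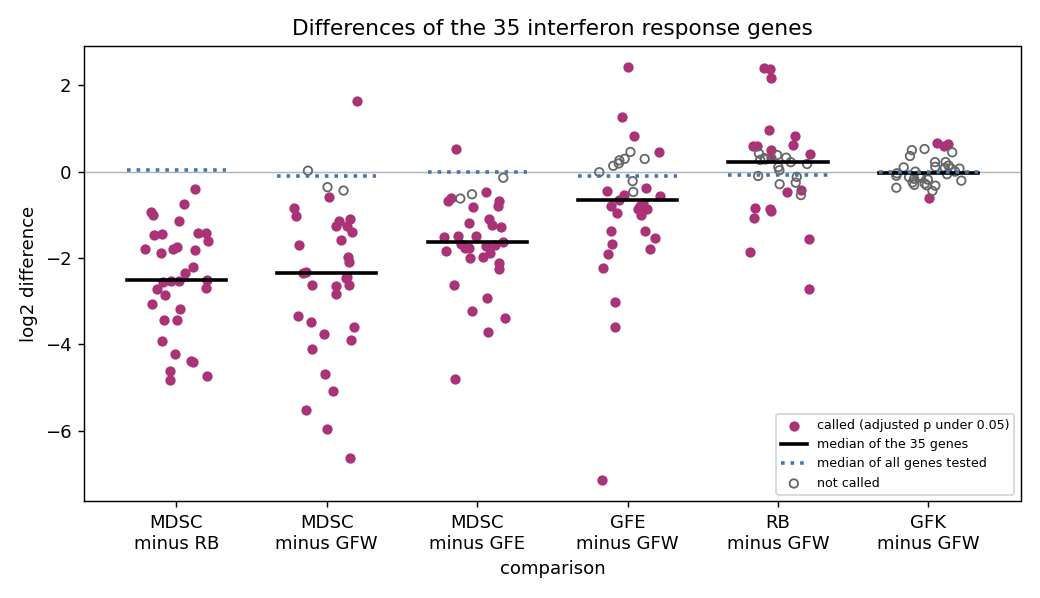
log2 differences of the 35 interferon response genes in 6 comparisons, each point a gene, filled where limma's adjusted p was under 0.05. The black line is the median of the 35 genes and the dotted line that of all genes tested, and the medians run from -2.50 (MDSC minus RB) to 0.22 (RB minus GFW).

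The RB and GFW arrays have the same wild-type labels, and their comparison shows how far such sets differ in this response. On RB arrays 11 of the 35 genes were higher and 9 lower (31.4% and 25.7%), shares near the background over all genes (23.9% and 26%). The median was 0.22 log2, against -0.08 over all genes. Mx2 read 7.78, 7.88 and 7.54 on RB arrays, against 5.11, 5.41 and 5.45 on GFW arrays (5.31-fold higher, adjusted p = 3.28e-07). Mx1 read 6.44, 6.57 and 7.60 on RB arrays, against 4.28, 5.31 and 4.53 on GFW arrays (at least 4.48-fold higher, adjusted p = 7.02e-06), although the Mx1 allele of C57BL/6 mice makes no functional protein. The Mx2 allele was not checked. Outside RB, Mx1 exceeded the 40th percentile only on GFE replicate 1 and GFW replicate 2. It thus passed the filter through the RB arrays, and its call is no independent support for a higher response there. Bst2 was 5.21-fold higher (adjusted p = 3.24e-09). Eif2ak2, at 9.11, 9.10 and 9.27 on RB arrays, was higher by 0.97 log2, and the others were Xaf1 (0.82), Cmpk2 (0.63), Zbp1 (0.59), Usp18 (0.59), Dhx58 (0.51), Parp14 (0.41) and Ifi35 (0.31). The calls of Ifi35 (without any of 5 arrays), Cmpk2, Parp14 and Usp18 were lost with some array left out (adjusted p up to 0.164, 0.124, 0.136 and 0.10). That of Ifi35 was lost as well with the mean of its probe sets (0.15, adjusted p = 0.257). All comparisons with GFW share the GFW arrays.

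The genes lower on RB arrays were led by Slfn4, which read 9.62, 9.96 and 9.5 there and was 6.61-fold lower than on GFW arrays (adjusted p = 1.86e-09). Ifit1 was 3.6-fold lower (adjusted p = 4.35e-08) and Oasl2 2.94-fold lower (adjusted p = 8.74e-08). The others were Isg15 (-1.08), Rtp4 (-0.91), Samd9l (-0.86), Oasl1 (-0.84), Trim30a (-0.47) and Ddx58 (-0.43), of which Trim30a was not called once RB replicate 1 or GFW replicate 1 was removed (adjusted p = 0.0721 at most). Ifit3 (0.42) and Ifit2 (0.39), which lie near Ifit1 on chromosome 19, were not called. The Irf7 (0.11), Irf9 (-0.12) and Stat2 (0.32) values did not pass. The cell type markers differed as well, with 9 of 10 monocyte markers higher on RB arrays and mean levels of 11.35 to 11.46, against 8.42 to 8.45 on GFW arrays. Neutrophil markers ran from 8.88 to 8.99 on RB and 11.22 to 11.29 on GFW arrays, with 8 of 10 lower. The part of these markers in the interferon genes was not tested.

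Within groups, 1 array stood apart. RB replicate 3 had the highest value of its group for 27 of the 35 genes, which held for 31.1% of all genes tested. Its genes lay at the median 0.22 log2 above the group mean, against -0.06 for RB replicate 2 and -0.16 for RB replicate 1. Rsad2 (viperin), an enzyme that makes a chain-terminating nucleotide, read 7.26, 7.50 and 8.46 on RB arrays, and its neighbour Cmpk2, a nucleotide kinase, read 8.19, 8.22 and 9.0. Both were highest on replicate 3. The mean level of the interferon gamma list on RB arrays ran over 8.07 to 8.57 log2. Without RB replicate 3 the counts for RB minus GFW were 7 higher and 11 lower, and Usp18, Cmpk2, Parp14 and Ifi35 lost their calls. Without it 35 of 35 genes were still lower on MDSC than on RB arrays. On the GFK side, replicate 3 was highest for 23 of 35 genes (39% of all genes), with a median deviation of 0.06 log2. The median SD of the 35 genes was 0.26 on RB and 0.11 on GFW arrays, against 0.18 and 0.15 over all genes.

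**Figure D4:**
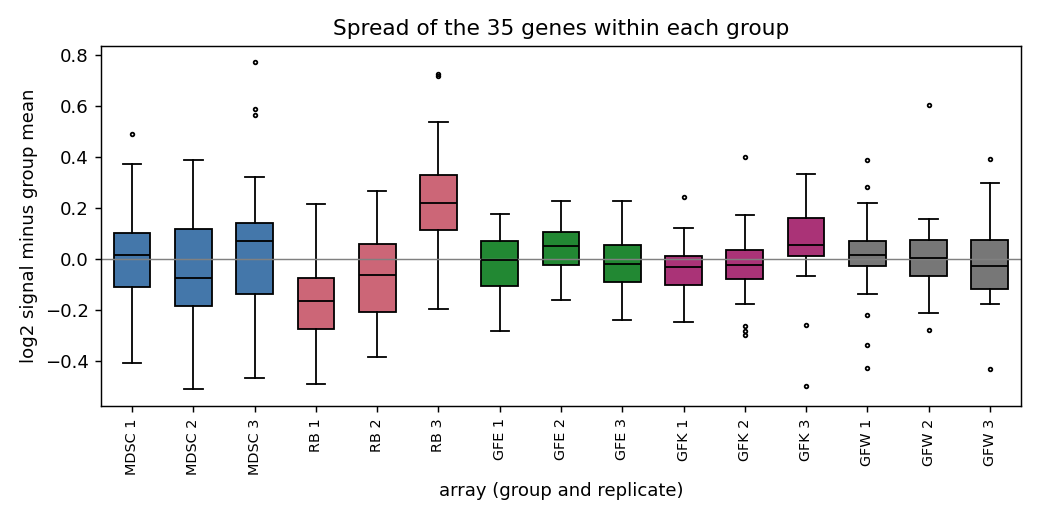
Signal of the 35 interferon response genes on each array minus the mean of its group of 3 (log2), as box plots with the median, the quartiles, whiskers to 1.5 times the interquartile range and outlying genes as points. RB replicate 3 lies highest, with a median of 0.22, and RB replicate 1 lowest, with -0.16.

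The steps upstream of the response were measured with lists of interferons, of receptors and signalling genes, and of genes that induce interferon. Of 18 listed interferons, 16 had a probe set and 8 passed the filter. Ifnb1 did not pass, with 3.80, 3.86 and 3.88 on MDSC, 3.76, 3.70 and 4.30 on RB, 4.29, 3.87 and 3.78 on GFE, 3.64, 3.79 and 3.67 on GFK and 3.62, 5.05 and 4.10 on GFW arrays, so 1 GFW array was highest. The alpha interferons are near-identical copies, and their probe sets may share signal. On MDSC arrays 3 of the 8 were lower than on RB and 3 lower than on GFW arrays, while 2 were higher than on GFE arrays. Over all genes the shares were 19.5% lower against RB, 29.4% lower against GFW and 15.4% higher against GFE, and the small counts were not tested against these shares. After culture 5 of the 8 fell, among them Ifna4 (-0.78), Ifna14 (-0.75) and Ifna1 (-0.71), and on GFK arrays 0 of 8 were called.

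Of 17 receptor and signalling genes tested, 13 were lower and 1 higher on MDSC than on RB arrays (background 19.5% and 25.3%). The receptor chains differed by -0.48 (Ifnar1) and -0.52 (Ifnar2), and the kinases by -0.57 (Jak1) and -1.26 (Tyk2). Against GFW arrays Tyk2 was higher on MDSC arrays (0.40) and Jak1 lower (-1.28). The single higher gene was Socs1, an inhibitor of Jak kinases, which read 8.35, 8.35 and 8.02 on MDSC arrays, against 5.81, 6.43 and 6.55 on RB, 7.27, 7.25 and 7.07 on GFE, 8.13, 7.90 and 7.55 on GFK and 7.09, 7.19 and 6.99 on GFW arrays. All MDSC values lay above those of RB, GFE and GFW and overlapped those of GFK, and the difference from RB was 3.94-fold (adjusted p = 1.92e-07). After culture 12 of the 17 fell and 3 rose (background 32.1% and 32.6%). Among those that fell were Socs3 (-4.50), a feedback inhibitor of cytokine receptors, and Ifngr1 (-2.34), a chain of the interferon gamma receptor. Irf8 (-1.90), a factor of monocyte and dendritic cell development, fell as well.

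Of 12 genes that induce interferon, 7 were lower and 2 higher on MDSC than on RB arrays (background 19.5% and 25.3%). The endosomal nucleic acid receptors Tlr9 (-2.99) and Tlr7 (-2.24) and their escort Unc93b1 (-1.60) were lower, and the RNA sensor adaptor Mavs (0.61) and the kinase Tbk1 (0.33) higher. After culture 5 fell and 3 rose (41.7% and 25% of the list, against 32.1% and 32.6% of all genes), shares near the background, with the Toll receptor adaptor Myd88 at -3.18 and Mavs at 1.13. On RB arrays 5 were higher and 4 lower than on GFW arrays (41.7% and 33.3% of the list, against 23.9% and 26% of all genes). These small counts were not tested against those shares. Tlr9 differed there by 2.11 and Tlr7 by 1.78. On GFK arrays the kinase Ikbke (1.42) and Tlr7 (0.57) were higher and Tlr3 lower (-1.02). The interferon gamma list had 11 of 12 genes lower on MDSC arrays than on RB and than on GFW arrays, and 10 lower and 1 higher than on GFE arrays. Over all genes 19.5% were lower against RB, 29.4% against GFW and 17.4% against GFE, where 15.4% were higher. Gbp3, a guanylate binding protein that also answers to type I interferon, differed by -2.67 from RB and -2.68 from GFE arrays. The plasmacytoid dendritic cell markers had mean levels of 5.66 to 5.85 on MDSC, 5.99 to 6.13 on RB and 5.97 to 6.07 on GFW arrays.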

How the data were processed

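The deposited values were log2 expression signals of 15 Affymetrix arrays, which the authors made with RMA in the oligo package, per the submitters' processing notes. Their versions and a genome build were not given in the sources used here. The scale of such values is compressed for dim probe sets, so that differences near background are understated. The table held 41345 probe sets, of which 23521 named a single gene, 1814 named more than 1 and 16010 named no gene. Genes with several probe sets (1082 of 22180) were represented by the one with the highest mean. Genes above the 40th percentile of an array on at least 3 arrays were tested (16055). Group means were fitted to all 15 arrays with limma 3.58.1 in R 4.3.3 (lmFit, eBayes, 10 residual degrees of freedom), and p-values were adjusted over all genes tested by the Benjamini-Hochberg method. Adjusted p under 0.05 made a call, and every adjusted p in the text is limma's. The code was tested on simulated data. Where the lower group's mean lay under the 40th percentile of probe sets, the difference is a lower bound. The number of arrays, 3 per group, limits the precision, and 0 pairs of arrays were identical.

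The listed genes and the other gene lists were chosen with earlier results of these data known. All listed genes with a probe set are named. Values of every array are given for Irf7, Irf9, Stat2, Isg15, Ifit1 and Mx1 and for the 3 called genes with the largest difference in each direction per comparison. A few other genes (Rsad2, Cmpk2, Slfn5, Socs1, Ifnb1 and Nos2) were given per array after their values were seen. Alternatives were other filters, normalizations, probe set rules, variance priors, a 1.5-fold threshold, a replicate block, fits of the 6 arrays compared and leaving out each array. The monocytes and progenitors of untreated mice were not analysed here.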

Additional observations from a re-analysis of the deposited data

How the results depend on the processing

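The counts of genes lower on MDSC arrays varied little: leaving out each array in turn gave 34 to 35 lower against RB (medians -2.54 to -2.30), 30 to 32 against GFW (-2.43 to -2.31) and 30 to 31 against GFE (-1.67 to -1.47, with 0 to 1 higher). The median against GFW was -2.22 with each array centred on its median and -2.46 with quantile normalization applied again, and the median against GFE was -1.49 with quantile normalization applied again. Of the calls, 34 of 35 (RB), 31 of 32 (GFW) and 29 of 32 (GFE) held with each array left out. For GFE minus GFW, centring arrays gave 7 higher and a median of -0.53, a repeated quantile normalization a median of -0.76, and leaving out each array -0.74 to -0.58. The calls of GFK minus GFW rested on small differences. No gene was lower (0) without the filter, with arrays centred, with quantile normalization again, in the fit of 6 arrays, with the replicate block, against a 1.5-fold threshold, or without any 1 array (0 lower and 1 to 2 higher). For RB minus GFW the fit of 6 arrays gave 7 higher, and leaving out each array gave 7 to 14 higher and medians of 0.0159 to 0.338, the lowest without RB replicate 3 and the highest without RB replicate 1 (14 higher and 8 lower). Testing against 1.5-fold left 0 higher for GFK minus GFW, 2 higher and 12 lower for GFE minus GFW, 0 higher for MDSC minus GFE, and 3 higher and 4 lower for RB minus GFW. The causes were not tested. In none of these alternatives did a called difference change its sign.

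Replicate numbers in the titles are shared across groups. Same-numbered arrays correlated in their deviations from group means at -0.0859 to 0.0471, below the 0.1 taken here as a sign of pairing, so the arrays are treated as sharing only a number. Over the 6 comparisons, 9 of 18 entries (3 arrays of the first group in each, MDSC arrays counted 3 times) had their highest correlation at their own number. With the replicate block the counts of higher and lower genes were 2 and 0 for GFK minus GFW, 5 and 22 for GFE minus GFW, 0 and 35 for MDSC minus RB, 1 and 31 for MDSC minus GFW and for MDSC minus GFE, and 11 and 10 for RB minus GFW. In the last, the block ended the call of Ifi35 (adjusted p = 0.0596) and called Ifit3 (0.42, 0.0179) and Rsad2 (-0.54, 0.0444).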
